A study of Mus musculus with 6 samples.

Results

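The stem and progenitor surface markers are 9 genes whose proteins are used to tell hematopoietic stem cells from the progenitors that follow them. They are Kit, Ly6a, Slamf1, Cd48, Cd34, Flt3, Procr, Tek and Cd27, chosen by name among the 49315 genes counted, and all 9 were found and passed the count filter. The question was whether their transcripts follow the sort gates of each population in both genotypes. Bulk RNA was sequenced from 6 libraries, which are LT-HSCs, ST-HSCs and MPPs (long-term and short-term hematopoietic stem cells and multipotent progenitors) sorted from lineage-depleted bone marrow of WT and of ING4-/- mice. Each library came from 1000 to 10000 cells pooled from 8 to 10 mice, so each population had 1 library per genotype and the spread between mice was not measured. WT C57BL/6 controls were 8 to 12 weeks of age, and the age of the ING4-/- mice sequenced is not given in the sources used here. ING4-/- mice lack ING4, a chromatin reader of the inhibitor of growth family, no treatment is named for either group, and by the study's methods both carry the CD45.2 form of Ptprc. Values of 3 libraries are given throughout in the order LT-HSC, ST-HSC, MPP.

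The gates act on proteins. Lineage-negative cells positive for Sca-1 (encoded by Ly6a) and c-Kit (encoded by Kit) were taken in every population, and CD48 was negative in every population. LT-HSCs were CD34- CD150+, ST-HSCs were CD34+ CD150+ and MPPs were CD34+ CD150-, where CD150 is encoded by Slamf1. CD135 (Flt3), EPCR (Procr), TIE2 (Tek) and CD27 were not used. As background, c-Kit and FLT3 are receptor tyrosine kinases for growth factors that keep stem and progenitor cells alive and dividing, and TIE2 is the receptor for angiopoietins. CD150 and CD48 belong to the SLAM family of immune cell receptors. CD150 is kept by the most primitive stem cells, while CD34 and then FLT3 appear as mouse stem cells become progenitors. Of the 5 markers used in sorting, only CD34 and CD150 separate the populations. Differences of Cd34 and Slamf1 between populations therefore describe the gates at the transcript level. Sca-1, c-Kit and CD48 were gated alike in every population, and only the other 4 markers are free of any gate.

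Total counts were 7839326 to 9363442 in the WT libraries and 35596876 to 39192588 in the ING4-/- libraries, a ratio of medians of 4.70. Genes with at least 1 count numbered 36082 to 41763 in WT and 14680 to 16188 in ING4-/-. Olfactory and vomeronasal receptor genes, which belong to sensory neurons, measured the background. These 1429 genes had 18.1 to 22.7 counts per kb of exon in WT and at most 0.0853 in ING4-/-. Over all genes this density corresponds to 22.6% to 33.4% of WT counts and to at most 0.0280% of ING4-/- counts, so depth and background cannot be told apart from genotype. WT libraries counted Ing4 itself 247, 162 and 247 times against 119, 121 and 96.3 expected from background, and ING4-/- libraries 0, 24 and 76 times. Its log2 fold change was -4.49 (SE 1.56, adjusted p = 0.0373, edgeR), and 34.9% of its exonic bases are shared with another annotated gene. Markers common to blood cells were present in every library (5 of 5 above background).

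**Figure D1:**
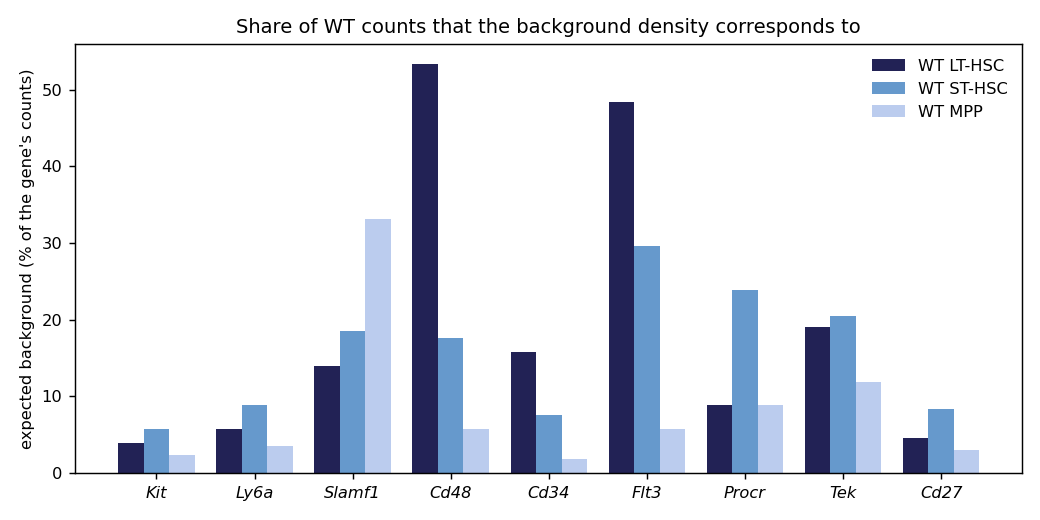
Expected background as a percent of each marker's own counts in the 3 WT libraries (bars, axis from 0). The share is highest for Cd48 (53.3%) and Flt3 (48.4%) in LT-HSCs and for Slamf1 in MPPs (33.2%), and at most 5.77% for Kit.

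Slamf1, Cd48 and Cd34 all lie on chromosome 1 of GRCm38. Slamf1 spans 171767127 to 171801184 and Cd48 spans 171682009 to 171705258 on the same strand, 61868 bases apart. Cd34 spans 194938819 to 194961279. The 250 bases before their start sites (RefSeq, GRCm38.p6) are shown because Slamf1 ran in the opposite order across the gates to its neighbour Cd48 and to Cd34. Capitals mark matches on either strand to short forms of the letters that blood transcription factors bind. They are GATAA for GATA factors. The letters for RUNX factors are TGTGGT. For ETS factors AGGAAG was used.
Slamf1 (chr1:171766882-171767131, plus strand): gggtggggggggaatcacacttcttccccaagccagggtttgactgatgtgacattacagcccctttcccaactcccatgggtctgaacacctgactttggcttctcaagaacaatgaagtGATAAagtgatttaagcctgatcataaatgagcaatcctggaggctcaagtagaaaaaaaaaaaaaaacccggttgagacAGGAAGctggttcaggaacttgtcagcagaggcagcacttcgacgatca
Cd48 (chr1:171681742-171681991, plus strand): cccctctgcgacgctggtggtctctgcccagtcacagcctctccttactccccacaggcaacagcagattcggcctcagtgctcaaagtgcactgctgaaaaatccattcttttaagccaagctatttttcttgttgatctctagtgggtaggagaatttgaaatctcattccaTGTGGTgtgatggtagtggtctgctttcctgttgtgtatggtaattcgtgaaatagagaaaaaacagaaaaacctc
Cd34 (chr1:194938571-194938820, plus strand): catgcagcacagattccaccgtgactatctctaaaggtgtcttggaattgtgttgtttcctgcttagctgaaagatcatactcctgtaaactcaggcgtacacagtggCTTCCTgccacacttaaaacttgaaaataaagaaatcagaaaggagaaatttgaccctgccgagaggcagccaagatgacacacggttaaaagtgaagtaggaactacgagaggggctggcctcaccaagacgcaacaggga
In the Slamf1 window the GATA match begins 129 bases before the start and the ETS match 49 bases before it. The Cd48 window has a RUNX match 76 bases before the start, and the Cd34 window an ETS match, on the other strand, 142 bases before it. Such matches are common. Among 27025 promoters of the same length, 23.0% held the GATA letters, 14.2% the RUNX letters and 29.2% the ETS letters. Of the 8 markers with a sequence, 1 held the GATA letters (Slamf1), 1 the RUNX letters (Cd48) and 3 the ETS letters (Kit, Slamf1 and Cd34).

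Slamf1, the CD150 gene, was lowest in the CD150- MPPs of both genotypes. Its counts were 986, 755 and 336 in WT and 3470, 888 and 299 in ING4-/-. As CPM, counts scaled to a common library size with edgeR's TMM factors, these are 104, 81.3 and 33.0 in WT and 111, 28.1 and 8.81 in ING4-/-. The MPPs were at 0.317 of the LT-HSC level in WT (95% interval 0.280 to 0.360) and 0.0795 in ING4-/- (0.0704 to 0.0895). These intervals, like all intervals below, cover counting error between 1 library and 1 library only. WT MPPs kept 336 counts where background alone corresponds to 111, and after its subtraction the WT ratio was 0.204. The ST-HSCs, CD150+ like the LT-HSCs, were at 0.783 of the LT-HSC level in WT and 0.253 in ING4-/-. In ING4-/- that step was larger than the next, from ST-HSCs to MPPs (0.314), and the CD150+ ST-HSCs of ING4-/-, at 28.1 CPM, lay below the CD150- MPPs of WT, at 33.0 CPM. In bulk samples fewer cells that express a gene and less RNA per cell cannot be told apart.

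Cd34, a sialomucin, ran in the opposite order. It had 1036, 2199 and 7281 counts in WT and 9500, 22601 and 52899 in ING4-/-. The CD34- LT-HSCs were lowest in both genotypes, and yet their transcript was far from absent. With TMM scaling ING4-/- LT-HSCs had 304 CPM, above the 237 CPM of the CD34+ ST-HSCs of WT. This order turned on other scales. The values were 267 against 273 on CPM without TMM, 274 against 306 on protein-coding CPM and 267 against 340 after background subtraction. ST-HSCs were at 2.17 times the LT-HSC level in WT (interval 2.01 to 2.34) and at 2.35 times in ING4-/- (2.30 to 2.41). MPPs, which share the CD34+ gate with ST-HSCs, were higher again, at 3.02 times the ST-HSC level in WT and 2.18 times in ING4-/-.

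The ratio of Cd34 to Slamf1 inside 1 library needs no scaling between libraries. Per kb of exon it was 0.887, 2.46 and 18.3 along the WT gates and 2.31, 21.5 and 149 along those of ING4-/-. No interval of a population overlapped that of its neighbour within a genotype. The ING4-/- ratio exceeded the WT ratio in each population, and after background subtraction the WT values were 0.869, 2.79 and 26.9.

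**Figure D2:**
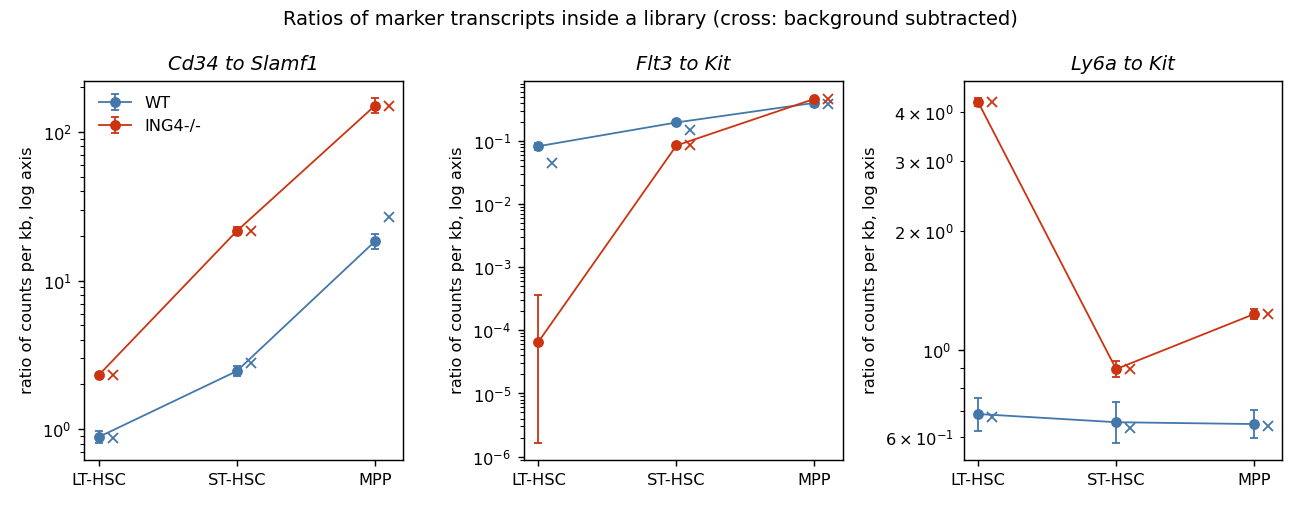
Ratios of counts per kb of exon between pairs of markers inside each library (log axes, 1 per panel), with 95% counting intervals as bars and background-subtracted values as crosses. Cd34 to Slamf1 climbs to 18.3 in WT MPPs and to 149 in ING4-/- MPPs, Flt3 to Kit climbs in both, and Ly6a to Kit is between 0.648 and 0.687 in WT but 4.23 in ING4-/- LT-HSCs.

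Cd48, whose product binds the SLAM family receptor CD244, was negative at the protein level in all 3 gates, but its transcript was not equal among them. WT counts were 50, 154 and 376. In ING4-/- they were 0, 1077 and 4300. In WT LT-HSCs 26.6 of the 50 counts are expected from background, so the level there is uncertain. The MPP level was 7.01 times that of LT-HSCs in WT (interval 5.21 to 9.61), or 11.7 times after background subtraction. In ING4-/- it was at least 1322-fold higher and that of ST-HSCs at least 355-fold higher, with 3 counts per library as the floor for a count of 0. These bounds cover counting error alone. MPPs also exceeded ST-HSCs, by 2.23 times in WT and 3.72 times in ING4-/-.

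Kit and Ly6a, the c-Kit and Sca-1 genes, mark all 3 gates as positive. Kit (chromosome 5, 75574916 to 75656722) had 5035, 3510 and 7095 counts in WT and 21967, 16974 and 33916 in ING4-/-. It was abundant everywhere, at 378 to 696 CPM in WT and 537 to 1000 CPM in ING4-/-, with the lowest level in ST-HSCs and the highest in MPPs in both genotypes. Its largest ratio between populations was 1.86, MPPs to ST-HSCs in ING4-/-.

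Ly6a (chromosome 15, 74994877 to 74998031) had 468, 311 and 622 counts in the WT libraries, 49.3, 33.5 and 61.0 CPM. In ING4-/- it had 12558, 2049 and 5641 counts, 401, 64.8 and 166 CPM. The ING4-/- LT-HSC library stood above the other 5. MPPs were at 1.24 times the LT-HSC level in WT (interval 1.10 to 1.40) and at 0.414 in ING4-/- (0.402 to 0.428), opposite directions whose difference could not be tested with 1 library each. Per kb of exon, Ly6a was at 0.687, 0.655 and 0.648 of Kit in WT. In ING4-/- it was at 4.23, 0.893 and 1.23.

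**Figure D3:**
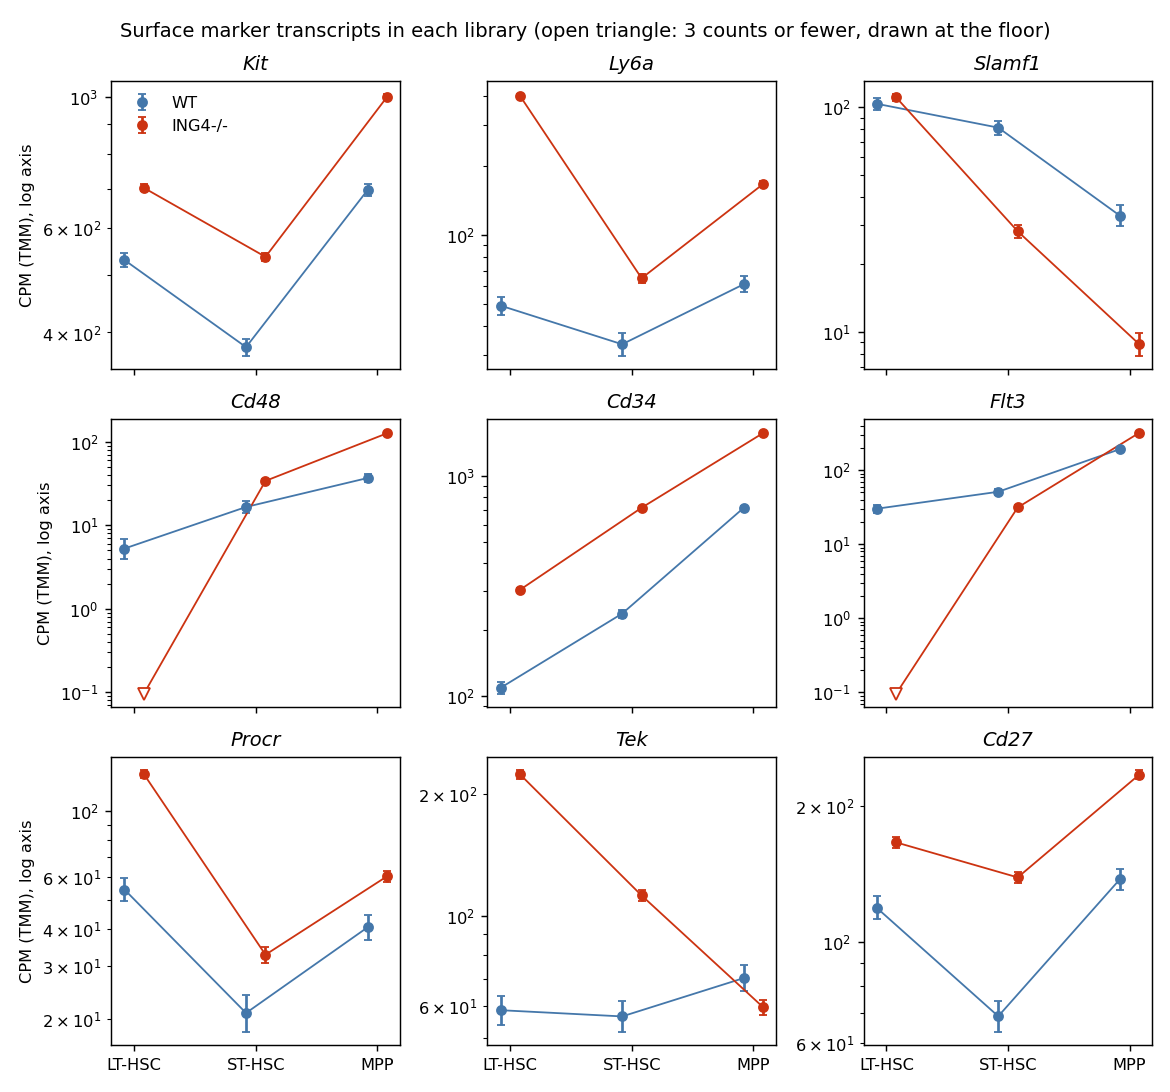
CPM with TMM scaling of each marker in LT-HSCs, ST-HSCs and MPPs of WT and ING4-/- mice (log axes, each panel with its own range; points are single libraries, bars are 95% counting intervals). Slamf1 is lowest and Cd34, Cd48 and Flt3 are highest in MPPs of both genotypes, and the ING4-/- LT-HSC library has 0 counts of Cd48 and 1 of Flt3, drawn as open triangles at the floor.

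Of the 4 markers outside the gates, Flt3 had the MPP to LT-HSC ratios farthest from 1 in both genotypes. FLT3 protein is known to mark progenitors with lymphoid potential. Flt3 (chromosome 5, 147330741 to 147400489) had 286, 474 and 1956 counts in WT, and 1, 991 and 10829 counts in ING4-/-. In WT LT-HSCs 138 of the 286 counts and in WT ST-HSCs 140 of the 474 are expected from background. MPPs had 6.37 times the LT-HSC level in WT (interval 5.63 to 7.24), or 9.64 times after background subtraction. In ING4-/- the ratio against the single count was 9991, with an interval of 1793 to 394661. Between MPPs and ST-HSCs it was 3.76 in WT and 10.2 in ING4-/-.

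Procr, the endothelial protein C receptor gene (chromosome 2, 155751117 to 155755471), was highest in LT-HSCs and lowest in ST-HSCs in both genotypes. Its counts were 517, 194 and 414 in WT and 4170, 1038 and 2047 in ING4-/-. ST-HSCs were at 0.384 of the LT-HSC level in WT (interval 0.324 to 0.453) and 0.246 in ING4-/- (0.230 to 0.264). MPPs were between them, at 0.746 of the LT-HSC level in WT and 0.453 in ING4-/-, so Procr did not fall step by step along the gates.

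Tek (chromosome 4, 94739289 to 94874976) encodes TIE2 and ran in different orders in the genotypes. WT libraries had 556, 525 and 716 counts, 58.6, 56.5 and 70.2 CPM, and the WT ST-HSC to LT-HSC ratio of 0.965 had an interval of 0.855 to 1.09. ING4-/- libraries had 6982, 3549 and 2019 counts, 223, 112 and 59.5 CPM, in descending order from LT-HSCs to MPPs. MPPs were at 1.20 times the LT-HSC level in WT and 0.267 in ING4-/-.

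Cd27, a receptor of the tumor necrosis factor receptor superfamily (chromosome 6, 125232622 to 125237010), had 1132, 638 and 1404 counts in WT and 5201, 4398 and 7956 in ING4-/-. ST-HSCs were lowest in both genotypes, at 0.576 of the LT-HSC level in WT and 0.837 in ING4-/-. WT MPPs stood 1.16 times above LT-HSCs with TMM scaling and at 0.973 of them after background subtraction. The order was the same with TMM, on CPM without TMM and on protein-coding CPM, and background subtraction alone turned it. A microRNA gene shares 5.54% of the exonic bases of Cd27 on the same strand.

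**Figure D4:**
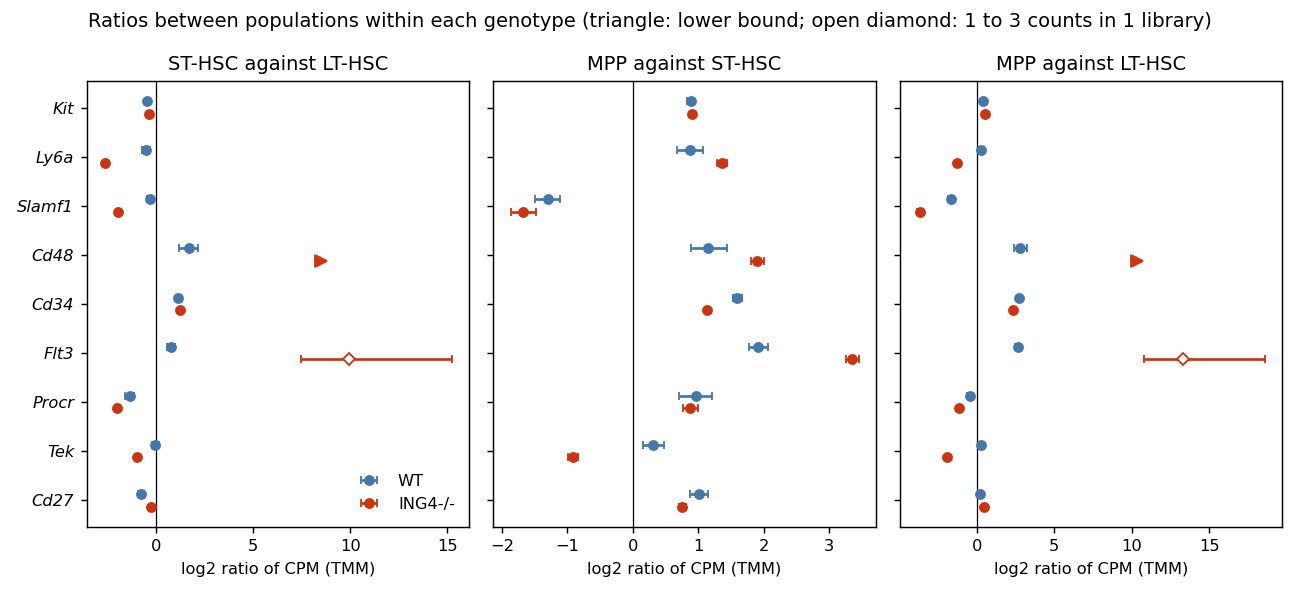
Log2 ratios of CPM between populations within WT (blue) and ING4-/- (red) for the 9 markers, with 95% counting intervals (panels have different x axes). Cd34, Cd48 and Flt3 lie right of 0 and Slamf1 left of 0 in all panels and both genotypes, while Tek lies on opposite sides in 2 of the panels; triangles are lower bounds for Cd48 and open diamonds mark the single Flt3 count.

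Across the 9 markers, 7 had the same order of the 3 populations in both genotypes on CPM, all except Ly6a and Tek. Of all genes tested 17.2% did so, and 21.1% of the 9673 genes counted 10 times or more in each library (well counted below). After background subtraction Cd27 left this set and 6 remained. Of the 4 markers outside the gates, Flt3, Procr and Cd27 were among the 7 on CPM. A difference over 2-fold in the same direction in both genotypes was found for 1 of these 4 between MPPs and LT-HSCs (Flt3, higher in MPPs), against 3.95% of genes tested and 3.79% of well counted genes. Between MPPs and ST-HSCs it was again 1 of 4 (Flt3, higher in MPPs), against 2.14% and 1.67%. Between ST-HSCs and LT-HSCs it was 1 of 4 (Procr, lower in ST-HSCs), against 3.48% and 3.55%. Of the 5 gate markers, 3, 3 and 2 differed in this way (Slamf1, Cd48 and Cd34 in the comparisons with MPPs, and Cd48 and Cd34 between ST-HSCs and LT-HSCs). The gates define the populations, so nothing is read from the count of gate markers. Direction alone was shared by 7, 8 and 9 of the 9 markers in these comparisons, against 28.3%, 27.1% and 27.7% of genes tested and 55.1%, 52.2% and 55.9% of well counted genes. These counts and the 7 with the same order include Slamf1 and Cd34, whose proteins separate the gates, so nothing is read from them either. Cd48 and Flt3, with 0 and 1 counts in ING4-/- LT-HSCs, are not themselves well counted genes.

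The test of populations over both genotypes, with genotype as a block, had only 2 residual degrees of freedom. A gene counts as called where its log2 fold change exceeded 1 in size and its adjusted p was under 0.05. No marker was called in any of the 3 comparisons by edgeR, and neither was any other gene (0% of 31001). At an unadjusted p under 0.05 there were 561 genes for MPPs against LT-HSCs, 187 for MPPs against ST-HSCs and 616 for ST-HSCs against LT-HSCs, with 3, 3 and 4 of the markers among them. DESeq2 called 473, 216 and 353 genes, and 0 markers. Cd34 had the smallest p of the markers, with a log2 fold change of 2.54 in MPPs against LT-HSCs (SE 0.19, unadjusted p = 3.1e-05, adjusted p = 0.962, edgeR). When tested only among well counted genes it was called at 2.41 (SE 0.17, adjusted p = 0.0154, edgeR), 1 of 2 genes called there. Slamf1 had a log2 fold change of -2.73 (SE 0.63, adjusted p = 1.00, edgeR) in the same comparison. The fitted values of Cd48 (5.11, SE 2.60) and Flt3 (5.25, SE 2.40) have wide errors. With each library left out, Slamf1 ranged from -3.70 to -1.75, Cd48 from 3.00 to 14.3 and Flt3 from 3.07 to 12.6. The ratios of Cd48 and Flt3 differed in size between the genotypes, and no residual degree of freedom was left to test that difference.

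Between the genotypes, Ly6a was higher in ING4-/- and was the marker called. Its log2 fold change over the 3 populations was 2.14 (SE 0.64, adjusted p = 0.0205, edgeR), and with TMM scaling every ING4-/- library was above every WT library. That makes 1 of 9 markers called, against 64.6% of genes tested in either direction, 7.98% higher and 56.7% lower. The call was lost without any 1 of the WT libraries (adjusted p = 0.0549 to 0.0738, edgeR), among well counted genes (adjusted p = 0.0698, edgeR), and after background subtraction, where the log2 fold change was 1.44 (adjusted p = 0.109, edgeR). Without the ING4-/- LT-HSC library the fold change was 1.30 on the log2 scale. Within populations Ly6a was at 8.14, 1.94 and 2.72 times WT. After background subtraction these ratios were 4.70, 1.14 and 1.83.

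Cd34 was at 2.78, 3.02 and 2.18 times WT. It missed the call without a block (log2 1.28, SE 0.80, adjusted p = 0.202, edgeR), and was called with population as a block (1.40, SE 0.15, adjusted p = 0.0178, edgeR). With that block 2 of 9 markers were called, both higher, beside 1999 of 31001 genes called higher and 16880 lower. After background subtraction the Cd34 ratios were 1.80, 1.76 and 1.44. With each library left out and no block, the Cd34 log2 fold change ranged from 0.55 to 2.16.

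Other markers were not called. Kit, Ly6a, Cd34, Procr and Cd27 had ING4-/- CPM above WT in all 3 populations, against 15.0% of genes tested and 44.7% of well counted genes. The list shrank to Ly6a, Cd34, Procr and Cd27 on CPM without TMM, and to Ly6a, Cd34 and Procr on protein-coding CPM and after background subtraction. Groups did not overlap for Ly6a and Cd27, both higher, against 35.9% of well counted genes. This rests on TMM scaling. On CPM without TMM the lowest ING4-/- library of Ly6a was at 54.2 and the highest WT library at 66.4, and for Cd27 they were at 116 and 150. Kit had a log2 fold change of 0.48 (SE 0.30, adjusted p = 0.206, edgeR), which turned to -0.26 after background subtraction. Over all genes tested the median log2 fold change was -6.85 with TMM, -7.17 with DESeq2 size factors and -6.35 with upper-quartile scaling, and 0.020 among well counted genes. After background subtraction it was -0.93, with 1108 genes called higher and 7646 lower of 19741. With upper-quartile scaling 5 of 9 markers were called, all higher (Kit, Ly6a, Procr, Tek and Cd27). Of the 31001 genes tested, 4556 were called higher and 17093 lower with that scaling. The part that depth and background play in these values was not tested.

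In the remaining markers the ING4-/- to WT ratio changed along the gates. Tek was at 3.81, 1.99 and 0.847 times WT (log2 fold change 1.09, SE 0.47, adjusted p = 0.0762, edgeR). Slamf1 was at 1.07 (interval 0.995 to 1.15), 0.345 and 0.267 times WT (log2 -0.56, SE 0.88, adjusted p = 0.611, edgeR). Flt3 was at 0.00106 (1 count, interval 2.7e-05 to 0.00596), 0.614 and 1.66 times WT. Cd48 was at least 54.9-fold lower than WT in LT-HSCs and 2.05 and 3.44 times WT in ST-HSCs and MPPs. The bound in LT-HSCs rests on the floor for a count of 0 and covers counting error alone. Cd48 and Flt3 were far from a call (adjusted p = 0.530 and 0.881, edgeR), and 53.3% and 48.4% of their WT LT-HSC counts are expected from background.

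**Figure D5:**
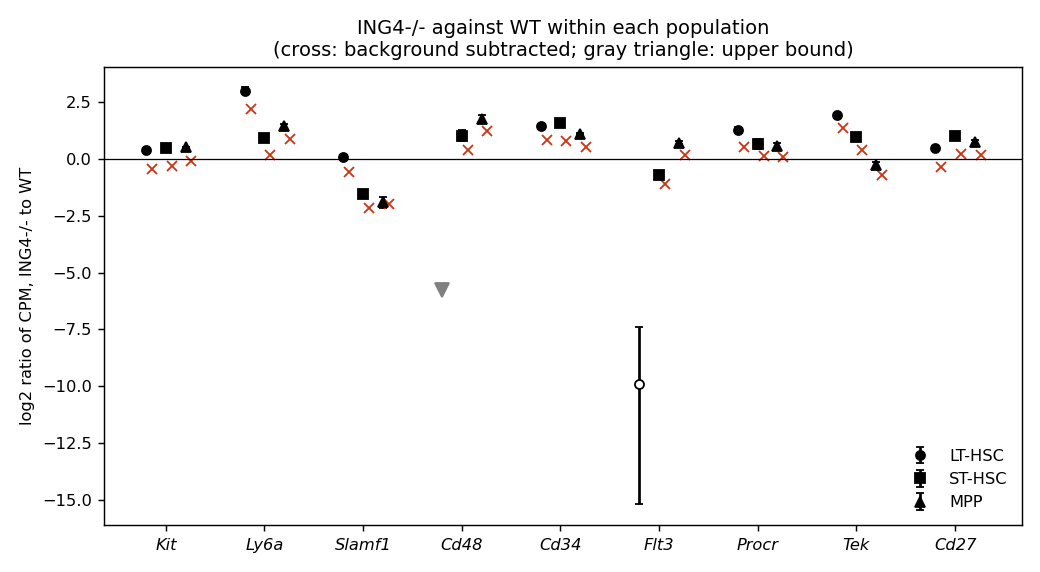
Log2 ratio of CPM, ING4-/- to WT, of each marker in LT-HSCs, ST-HSCs and MPPs (1 library against 1, bars are 95% counting intervals, crosses are background-subtracted). Ly6a and Cd34 lie above 0 in all populations by both measures, Kit changes side when background is subtracted, and Cd48 and Flt3 in LT-HSCs are an upper bound (gray) and a ratio resting on 1 count (open).

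The markers were set beside related genes, and each count here stands beside 7.98% of all genes tested called higher and 56.7% called lower in ING4-/-, with a median log2 fold change of -6.85. The list calls and medians are without background subtraction, after which the median over genes tested was -0.93. Of 7 other SLAM family genes, 0 were called higher and 3 lower in ING4-/- (median log2 -2.96). Cd84 had 702, 565 and 730 counts in WT and 2505, 2873 and 3023 in ING4-/-, nearly even across the gates where its relatives Slamf1 and Cd48 were not. Of 7 tested neighbours of Sca-1 in the Ly6 family, 1 was called higher and 4 lower (median log2 -6.59), the higher one being Ly6e (log2 1.31, SE 0.18, adjusted p = 6.9e-04, edgeR). Of 7 kinases related to c-Kit, FLT3 and TIE2, 0 were called higher and 3 lower (median log2 -2.89). Tie1, the partner of TIE2, had 225, 131 and 163 CPM in WT and 463, 153 and 187 in ING4-/-. Among 7 ligands of the markers tested, 0 were called higher and 4 lower (median log2 -2.96). Angpt1, the TIE2 ligand, had 376, 312 and 362 CPM in WT and 676, 517 and 402 in ING4-/-, and Kitl, the c-Kit ligand made by stromal cells, had 75, 56 and 85 counts in WT and 0 in all ING4-/- libraries.

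Against the same shares over all genes (7.98% higher, 56.7% lower), of 14 genes that relay c-Kit and FLT3 signals, 2 were called higher (Grb2 and Lyn) and 2 lower (Gab2 and Cbl) in ING4-/- (median log2 0.26). Of 12 tumor necrosis factor receptor superfamily genes and partners, 3 were called higher and 4 lower (median log2 0.092). Siva1, which encodes a CD27-binding protein, had 254, 495 and 501 counts in WT and 4999, 9625 and 8958 in ING4-/- (log2 2.49, SE 0.37, adjusted p = 8.5e-04, edgeR). Of 18 further surface genes of stem cells, 4 were called higher (Cd9, Cd81, Cd63 and Esam) and 0 lower, with a median log2 fold change of 0.86. None of these lists had a gene called between populations. Of 13 further surface genes of progenitors, 0 were called higher and 4 lower between genotypes (median log2 -0.79). Between populations their median log2 fold change was 1.76 in MPPs against LT-HSCs (0.027 over all genes). Against 3.95% of genes tested, 2 of the 13 were over 2-fold in the same direction in both genotypes, both higher in MPPs. One of them is Csf3r (the G-CSF receptor), with 48.0, 54.4 and 165 CPM in WT and 22.8, 43.1 and 149 in ING4-/-. Grb2, Lyn, Gab2, Cbl, Siva1, Cd9, Esam, Kitl, Ms4a1, Pax5 and Alas2 were named after their values were seen.

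Markers of cells that the lineage depletion or the gates should leave out were read in the same libraries. Of 6 B cell genes, 5 were at 0 in each ING4-/- library, Ms4a1 and Pax5 among them, and the summed level was 94.7 to 114 CPM in WT and 64.6 to 112 CPM in ING4-/-. The whole ING4-/- sum was Cd79b, a part of the B cell receptor, at 112, 80.6 and 64.6 CPM, which was called higher (log2 1.60, SE 0.31, adjusted p = 0.0027, edgeR), while the other 5 were called lower. Of 6 T and NK cell genes, 3 to 5 were at 0 in the ING4-/- libraries, Cd3e among them, with 55.3 to 136 CPM in WT and 26.9 to 280 CPM in ING4-/-, where Nkg7, a gene of cytotoxic granules, made up 26.9, 267 and 228 CPM. The 7 erythroid genes summed to 19.1 to 32.1 CPM in WT and 88.3 to 184 CPM in ING4-/-, and 4 were called higher and 1 lower (Alas2, with 42, 72 and 84 counts in WT and 0 in each ING4-/- library), against 7.98% and 56.7% of genes tested. The 8 granulocyte and monocyte genes summed to 20.2, 49.3 and 185 CPM in WT and to 72.7, 171 and 309 CPM in ING4-/-. Mpo alone was 155 CPM of that sum in WT MPPs and 268 CPM in ING4-/- MPPs. S100a8 ran the other way, with 56, 2 and 8 counts in WT and 1465, 337 and 585 in ING4-/-. The summed level of the 5 megakaryocyte genes was highest in ST-HSCs in both genotypes (327 and 1056 CPM), most of it Itga2b and Pf4, whereas Gp9 was highest in LT-HSCs, with 56.8, 30.1 and 30.5 CPM in WT and 118, 98.2 and 38.9 CPM in ING4-/-. The 5 endothelial genes, Tie1 and Vwf among them, summed to 500 CPM in WT LT-HSCs and 794 CPM in ING4-/- LT-HSCs, and to 248 to 374 CPM in the other 4 libraries. The 6 stromal genes summed to 101 to 120 CPM in WT and 1.12 to 16.6 CPM in ING4-/-, and 4, 5 and 3 of them were at or below background in the WT libraries. The part of such cells in the marker values was not tested.

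The genes most like Slamf1 and Cd34 were sought among 7389 genes counted 100 times or more in each library. Likeness was the Pearson correlation of log2 CPM over the 6 libraries after each genotype's mean was subtracted, a description over few points that share depth and background within a genotype. For Slamf1 the closest were Smg1 (r = 0.999), Dhx9 (r = 0.996) and Rex1bd (r = 0.995), with 62 genes over 0.95. For Cd34 they were Psmb8 (r = 0.999), Ucp2 (r = 0.998) and Atp6v1h (r = 0.995), with 100 genes over 0.95. Per kb of exon, Kit was the most abundant marker in WT LT-HSCs and ST-HSCs and Cd34 in WT MPPs. In ING4-/- Ly6a led in LT-HSCs, and Cd34 led in ST-HSCs and MPPs.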

How the data were processed

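RNA from 6 sorted bone marrow samples was sequenced, and the sequencing company counted reads per gene for the authors. The deposited files hold raw counts per gene without normalization, for 49315 genes, with genome build mm10 per the submitters' processing notes. The aligner, counting program and strand setting are not given in the sources used here. Symbols and positions came from GENCODE M21 (GRCm38), which holds 49056 of the identifiers and lacks 259. Promoters came from RefSeq, matched for 8 of 9 markers, with none shown for Ly6a.

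ING4-/- libraries were compared with WT in edgeR 4.0.16 (R 4.3.3) with TMM scaling, a low-count filter set by genotype (filterByExpr) and the quasi-likelihood test, with Benjamini-Hochberg adjustment over 31001 genes. The 3 populations stand in as replicates, so p-values measure the spread between them. Populations were compared with genotype as a block. Each SE is the size of the log2 fold change over the square root of F. Deviations from the genotype mean were correlated between the 2 libraries of each population (r = 0.143, 0.110 and 0.121 over 9673 genes), so populations pair the libraries and a block fit was an alternative. Ratios of 2 libraries carry exact conditional binomial 95% intervals, and those of 2 genes in a library likewise. Counts may include copies of 1 molecule, as no molecular identifiers are named, so these intervals and the floors cover counting error alone. The floor of 3 counts is 0.294 to 0.323 CPM in WT and 0.0884 to 0.0959 CPM in ING4-/-. Background was the density per kb of exon on protein-coding olfactory and vomeronasal receptor genes, times exonic length. No library duplicated another of its genotype. The chi-square per degree of freedom was 14.1 to 23.0 between WT libraries and 211 to 401 between ING4-/- libraries. These values grow with depth, and all are above counting error alone. The fits were tested on simulated counts. DESeq2 1.42.0, Python 3.11.15 and pandas 2.3.3 were also used.

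The markers and gene lists were chosen with earlier results of these data known. Named genes are the markers, Ing4, up to 4 members of each list with the most ING4-/- counts, and the 3 genes most like Slamf1 and Cd34. Flow cytometry was not analysed here, and the results for a few list genes are not reported here.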

Additional observations from a re-analysis of the deposited data

Results flagged for a closer look

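Some markers moved in opposite directions in the 2 genotypes or in the populations. Each direction rests on 1 library against 1, and the difference was not tested. Log2 ratios here use TMM scaling with a prior count of 2.

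Between populations, Ly6a in MPPs against LT-HSCs was 0.31 in WT and -1.27 in ING4-/-, a difference of -1.58. Tek in MPPs against LT-HSCs was 0.26 in WT and -1.90 in ING4-/-, a difference of -2.17. For Tek in MPPs against ST-HSCs the values were 0.31 and -0.91, a difference of -1.23.

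Between genotypes, Tek was 1.93, 0.99 and -0.24 in LT-HSCs, ST-HSCs and MPPs, differences of -2.17 and -1.23, which are the same differences seen from the other side. Slamf1 was 0.094, -1.53 and -1.89, so that the latter differ from LT-HSCs by -1.62 and -1.99. After background subtraction the LT-HSC value of Slamf1 was -0.57 and the directions were no longer opposite. Cd48 was -5.81 in LT-HSCs, where ING4-/- had 0 counts and the value depends on the prior count, and 1.03 and 1.78 in ST-HSCs and MPPs, differences of 6.85 and 7.59. Flt3 was -7.89 (1 count in ING4-/-), -0.70 and 0.73. The MPP value differs by 8.62 from LT-HSCs and by 1.44 from ST-HSCs.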

How the results depend on the processing

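Of 496 refitted log2 fold changes of the markers, 468 kept their direction and their side of the threshold, 5 lost the call, 8 gained it and 15 changed sign. Between genotypes 20041 genes and 1 marker were called. Among genes counted 10 times or more in each library 1739 and 0 markers were called, and with background subtracted 8754 and 0. Upper-quartile scaling called 5 markers, beside 4556 genes called higher and 17093 lower of 31001. Population as a replicate block called 2, beside 1999 genes called higher and 16880 lower. Leaving out each library gave 0 to 2 markers, beside 19943 to 22874 genes called. It was 0 without any 1 WT library. It was 2 without the ING4-/- LT-HSC library (Ly6a, and Slamf1 at -1.95) and without the ING4-/- MPP library (Ly6a, and Tek at 1.46). Between populations edgeR called 0 genes. With that minimum of 10 counts it called 2 for MPPs against LT-HSCs, 1 of them a marker. The DESeq2 Wald test called 473 genes for MPPs against LT-HSCs, 216 for MPPs against ST-HSCs and 353 for ST-HSCs against LT-HSCs.

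Signs changed in these cases, and the cause was not tested. Between genotypes Kit was -0.014 with the minimum of 10 counts and -0.26 with background subtracted, Slamf1 0.042 with upper-quartile scaling, Cd48 -0.15 with population as a replicate block, and Flt3 -0.17 with background subtracted and -1.59 with the block. The block changed no other call than that of Cd34. Leaving out each library, Cd48 ranged from -0.17 to 2.13 and Flt3 from -2.51 to 1.38. In MPPs against LT-HSCs Ly6a ranged from -1.52 to 0.43 and Tek from -1.73 to 0.0080. In MPPs against ST-HSCs Cd48 ranged from -2.05 to 4.36, Flt3 from -0.86 to 5.10 and Tek from -1.16 to 0.53, and in ST-HSCs against LT-HSCs Tek ranged from -1.35 to 0.28. In these fits a population left with 1 library is assumed to vary like the others.

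With 1 library per genotype and population, differences between genotypes in a population ratio have no replicate check. Background limits the WT LT-HSC values of Cd48 and Flt3, where it corresponds to 53.3% and 48.4% of the counts. The 0 counts of Cd48 in ING4-/- LT-HSCs correspond to at most 0.0959 CPM by the floor, which covers counting error alone. Some list genes, picked after their values were seen, also changed between 0 and many counts along the ING4-/- gates. Lynx1 had 459, 0 and 0 counts, F2 had 696, 0 and 0, and Slamf8 had 0, 0 and 666. Others, such as Cd84, were counted in every library. Whether transcripts present in the cells went uncounted was not tested, so the true level of Cd48 may lie above the floor. An exact permutation test of 3 libraries against 3 cannot go below 0.10 (two-sided).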

Other observations

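A few genes of maturing blood cells, chosen after their values were seen, varied along the same gates. Mpo, the myeloperoxidase gene of granulocyte precursors, was the gene called beside Cd34 in MPPs against LT-HSCs among genes counted 10 times or more in each library (log2 5.76, SE 0.53, adjusted p = 0.0457, edgeR). It had 27, 209 and 1577 counts in WT, where background corresponds to 76.7, 77.9 and 62.0 counts, and 135, 3192 and 9107 counts in ING4-/-. Pf4, a platelet chemokine gene, was highest in ST-HSCs in both genotypes, with 200, 450 and 159 counts in WT and 1958, 12293 and 2212 in ING4-/-. Itga2b, which encodes the platelet integrin CD41, showed that order too, with 123, 239 and 125 CPM in WT and 193, 530 and 158 in ING4-/-. Vwf, the von Willebrand factor gene, was highest in LT-HSCs, with 149, 72.6 and 83.6 CPM in WT and 246, 98.8 and 9.70 in ING4-/-.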
